A study of Mus musculus with 20 samples.

Results

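Lipolysis in visceral adipose tissue was described through 9 genes, chosen by name for their role in the release of fatty acids from stored fat, with earlier results of these data known. They were the lipases Pnpla2, Pnpla3, Lipe and Mgll, the coactivator Abhd5, the inhibitor G0s2, the glycerol channel Aqp7, and Pde3b and Prkar2b of the cAMP arm. The array carried 18 probes for them, of which 17 passed the filter on dim probes, out of 39,390 tested probes with 25,618 gene names. Each of the 9 genes kept at least 1 probe, and the gene was read by its brightest tested probe.

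The tissue was epididymal fat of male C57bl/6J mice of the F3 generation, with 1 array of 1 colour per mouse. The Ref group (6 mice, labelled STD Cont) came from a control lineage whose growing diet held high-oleic sunflower oil, and was fed a normocaloric diet. The HFoleic group (6 mice, HFD Cont) came from the same lineage and was fed a high-fat diet rich in sucrose. The HFepa group (8 mice, HFD O3) was fed that same high-fat diet, but came from a lineage whose growing diet held a fish oil rich in the omega 3 fatty acid EPA. There was no EPA lineage on the normocaloric diet, so HFepa vs. Ref differed in both lineage and diet. Litters and cages were not given in the labels, so the mice of a group may share either. The labels named the tissue only as adipose; Adipoq, an adipokine of fat cells, had a level of 18.13 in Ref, 18.10 in HFoleic and 18.06 in HFepa (means, log2 intensity).

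In a fat cell, triglyceride is cut in steps, first by adipose triglyceride lipase (Pnpla2), then by hormone-sensitive lipase (Lipe), and last by monoglyceride lipase (Mgll). Catecholamines raise cAMP, protein kinase A then phosphorylates perilipin on the lipid droplet, and the coactivator ABHD5 (also called CGI-58) is freed to activate ATGL, while G0S2 binds and inhibits it. Insulin acts in the opposite direction, in large part through phosphodiesterase 3B, which breaks down cAMP.

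The array reads each gene through short DNA probes, and for several of these genes it read more than 1 place. The stretches below are shown because the brightest Lipe probe passed in HFoleic vs. Ref and the other tested one did not, and because Pnpla2, Pnpla3 and Mgll are compared in the text. Each probe has 60 bases and is given on the strand of the gene, from 5′ to 3′, and each stretch is 30 bases of it. Capitals mark the letters AATAAA, the usual signal for the end of a transcript, or a run of A at the end of the probe. Neither the letters nor the run of A alone shows that a transcript ends there.
Pnpla2 (NM_001163689), bases 30 to 59: caaagcagatctAATAAAagccacagctca
Pnpla3 (NM_054088, brightest), bases 1 to 30: gcaaactagtggaacagcagaaggattgaa
Lipe (AK019846, brightest), last 30 bases: atgtcacaattccaggaattgcctAAAAAA
Lipe (NM_010719), bases 1 to 30: gaagaagctgacAATAAAggacttgagcaa
Lipe (ENSMUST00000105177), bases 1 to 30: tctccagagtggaagtcattttttgactgt
Mgll (NM_001166251, brightest), bases 27 to 56: acagctcaccgtAATAAAaaccacgtgctt
Mgll (NM_001166250), bases 1 to 30: tatgatgagctggctcatatgttgaagggg

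On mm9, the build of the files, the Pnpla2 probe lies at chr7:148645928-148645987 on the plus strand, and the brightest Pnpla3 probe at chr15:84019823-84019882 on the plus strand. The 3 Lipe probes lie on the minus strand of chromosome 7, at chr7:26167986-26168045 (AK019846), chr7:26165828-26165887 (NM_010719) and chr7:26182789-26182848 (ENSMUST00000105177). The NM_010719 probe therefore starts 2158 bases downstream of the AK019846 probe in the direction of the gene, and the third probe 14803 bases upstream of it. The Mgll probes lie on the plus strand at chr6:88778292-88778351 and chr6:88714636-88714695, 63656 bases apart. Whether each probe falls in an exon, an intron or a UTR of that build was not analysed here. The 17 tested probes were each detected well above background in all 20 mice, and no spot of theirs was saturated or marked as poor. The third Lipe probe was well above background on 0 of 20 arrays, with median signals from 27 to 38, and has only a bound.

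The high-fat diet in the control lineage (HFoleic vs. Ref) changed 6 of the 9 genes: Lipe, Pde3b, Abhd5, G0s2 and Pnpla2 were lower, and Pnpla3 was higher. Over all genes read by their brightest probe, 31.9% passed the same test, 15.2% as higher and 16.7% as lower. The median log2 fold change of the 9 genes was -0.42, beside -0.04 over all genes, and the median size of the change was 0.63, beside 0.18. Counted by probe, 11 of 17 passed, beside 30.8% of all probes. The groups did not overlap for 2 of the 9 genes, Lipe and Abhd5, beside 14.0% of all genes. Without adjustment, 6 of 9 passed at p under 0.05, beside 42.2%. All adjusted p-values are from limma, corrected by Benjamini-Hochberg across the whole array, with a threshold of 0.05, and fold changes are on the scale of intensity.

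**Figure D1:**
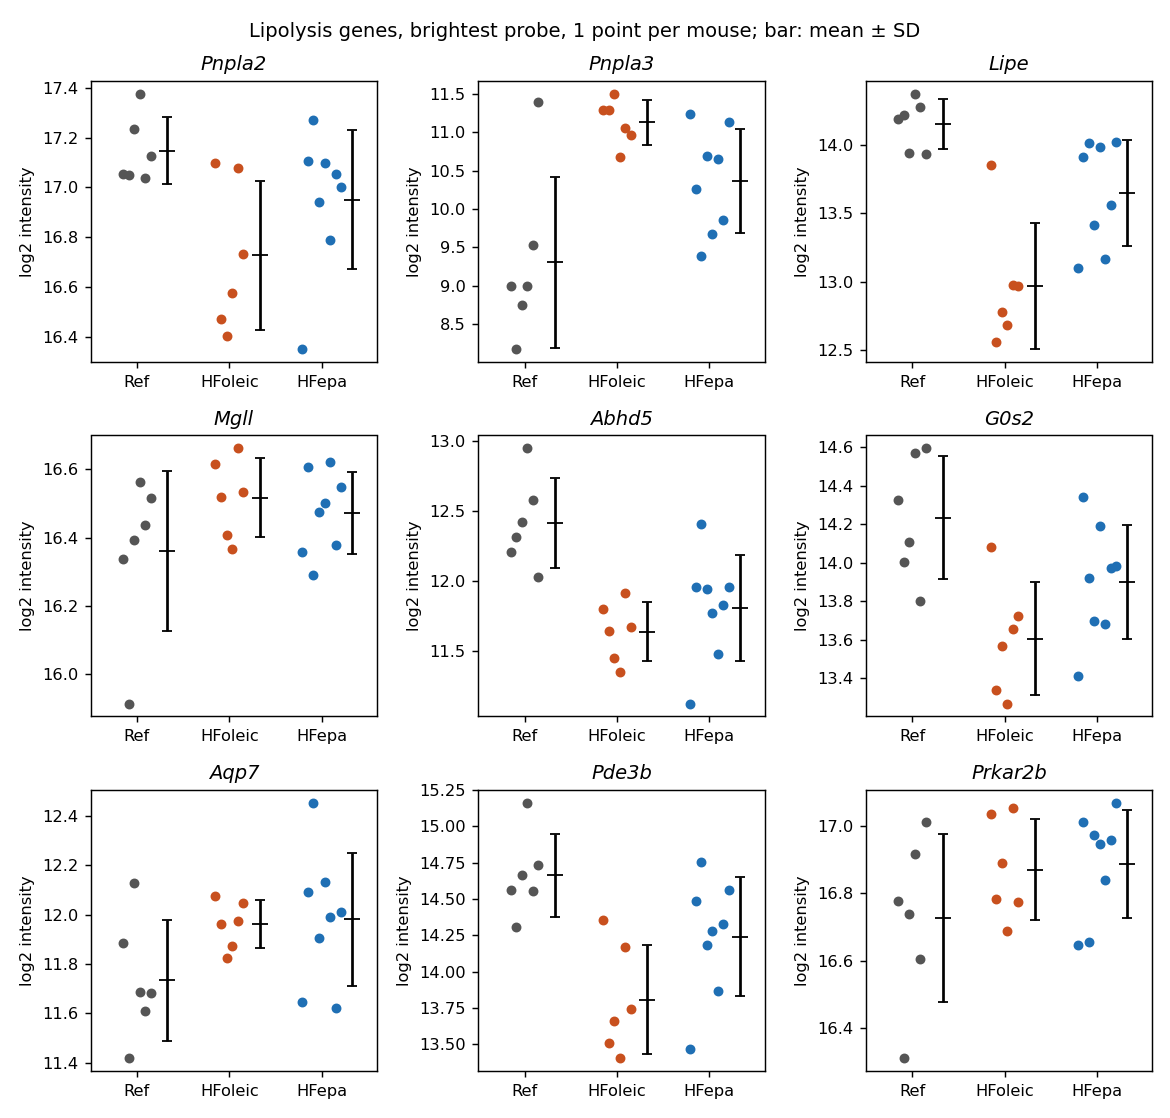
Level of the 9 lipolysis genes in each mouse (vertical axis: log2 intensity of the brightest probe after quantile normalization, with its own range in each panel; horizontal axis: Ref, HFoleic and HFepa); points are mice, and bars give the mean and SD of each group. In Lipe and Abhd5 the 6 HFoleic mice sit below all Ref mice, and in Pnpla3 Ref mouse 7, at 11.39, sits among the HFoleic mice.

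Lipe, the hormone-sensitive lipase that mainly cuts diglyceride, had the lowest adjusted p of the 9 genes. Its log2 intensity ran from 13.93 to 14.37 in Ref (median 14.20), from 12.56 to 13.85 in HFoleic (median 12.87), and from 13.10 to 14.02 in HFepa (median 13.73). The HFoleic mice were all below the Ref mice, although HFoleic mouse 1, at 13.85, was close to the lowest Ref mouse and apart from the next HFoleic mouse at 12.97. The HFepa mice spread between the other groups and overlapped both. Lipe was 2.27-fold lower in HFoleic than in Ref (log2 -1.18, SE 0.20, adjusted p = 0.000517). The log2 difference of HFepa vs. Ref was -0.51 (SE 0.19, adjusted p = 0.130). In HFepa vs. HFoleic it was 0.68 (SE 0.19, adjusted p = 0.118). This difference passed in 2 of 20 fits with 1 array left out, those without HFoleic mouse 1 (0.85, adjusted p = 0.0251) or HFepa mouse 1 (0.75, adjusted p = 0.0277). Without HFoleic mouse 4 it was smallest, at 0.60 (adjusted p = 0.307).

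The other tested Lipe probe, in the NM_010719 transcript, gave a smaller difference. Its level was 12.19 ± 0.17 in Ref (SD, n = 6), 11.82 ± 0.35 in HFoleic (n = 6) and ran from 11.30 to 12.34 in HFepa (n = 8). The log2 difference in HFoleic vs. Ref was -0.38 and did not pass (adjusted p = 0.085). This probe differed by 0.18 in HFepa vs. HFoleic (adjusted p = 0.534). HFoleic mouse 1, at 12.50, was above all Ref mice on this probe, and HFepa mouse 1 was the lowest HFepa mouse, at 11.30. Without HFoleic mouse 1 both of these differences are larger in size. Without HFepa mouse 1 the difference in HFepa vs. HFoleic is larger. Over the 20 arrays the values of both probes, centred on their group means, had a Pearson r of 0.73, as a description. Whether the probes differed from each other in response was not tested. With the mean of both probes, Lipe was lower by log2 -0.78 (adjusted p = 0.00225) in HFoleic vs. Ref.

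Pnpla2, the lipase of the first step, changed least among the genes that passed. Its log2 intensity ran from 17.04 to 17.38 in Ref (median 17.09), from 16.40 to 17.10 in HFoleic (median 16.66), and from 16.35 to 17.27 in HFepa (median 17.03). HFoleic mice 1 and 7 lay within the range of the Ref mice and the other 4 lay below it. Among the HFepa mice, mouse 1 was the lowest of all 20. Pnpla2 was 1.34-fold lower in HFoleic than in Ref (log2 -0.42, SE 0.14, adjusted p = 0.0275). This call held in 15 of 20 fits with 1 array left out, and the highest adjusted p was 0.0696, without HFoleic mouse 4. It was also lost without HFoleic mouse 5 (0.0695), HFoleic mouse 6 (0.0609), Ref mouse 5 (0.0625) and Ref mouse 4 (0.0528). In HFepa vs. Ref the log2 difference was -0.20 (95% interval -0.47 to 0.08), and in HFepa vs. HFoleic it was 0.22 (-0.05 to 0.50); neither passed. Without HFepa mouse 1 these differences were -0.11 and 0.31.

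Pnpla3, a relative of Pnpla2 known in liver for a variant linked to fat accumulation, was the gene that rose. Its log2 intensity ran from 8.17 to 11.39 in Ref (median 8.99), from 10.68 to 11.50 in HFoleic (median 11.17), and from 9.38 to 11.24 in HFepa (median 10.46). The other 5 Ref mice reached at most 9.53, while Ref mouse 7, at 11.39, was above all but 1 of the HFoleic mice. Pnpla3 was 3.55-fold higher in HFoleic than in Ref (log2 1.83, SE 0.41, adjusted p = 0.00269), and by log2 2.24 (adjusted p = 0.000202) without Ref mouse 7. HFepa vs. Ref gave a log2 difference of 1.06 (SE 0.38, adjusted p = 0.127), and 1.47 with an adjusted p of 0.0130 without Ref mouse 7. That was the 1 of 20 fits with 1 array left out that passed, and the highest adjusted p was 0.254, without Ref mouse 3. In HFepa vs. HFoleic it was -0.77 (SE 0.38, adjusted p = 0.258). The other Pnpla3 probe, 3383 bases away, was higher in HFoleic vs. Ref by log2 0.99 (adjusted p = 0.0235), and its log2 difference in HFepa vs. Ref was 0.27 (adjusted p = 0.657). On that probe too Ref mouse 7 was the highest Ref mouse, at 10.74, and the next was Ref mouse 5, at 9.55. Both differences of that probe are larger without Ref mouse 7.

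Mgll, which cuts the last fatty acid from glycerol, did not pass in any comparison. Its brightest probe had a level of 16.36 ± 0.23 in Ref, 16.52 ± 0.11 in HFoleic and 16.47 ± 0.12 in HFepa. The groups overlapped widely, and the lowest value was that of Ref mouse 3, at 15.91. Without that mouse the log2 difference in HFoleic vs. Ref was 0.07, beside 0.16 with it. The 95% interval of the difference was -0.04 to 0.35 in HFoleic vs. Ref, -0.07 to 0.29 in HFepa vs. Ref and -0.23 to 0.14 in HFepa vs. HFoleic. The other Mgll probe had a log2 difference of 0.33 in HFoleic vs. Ref (adjusted p = 0.0580).

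**Figure D2:**
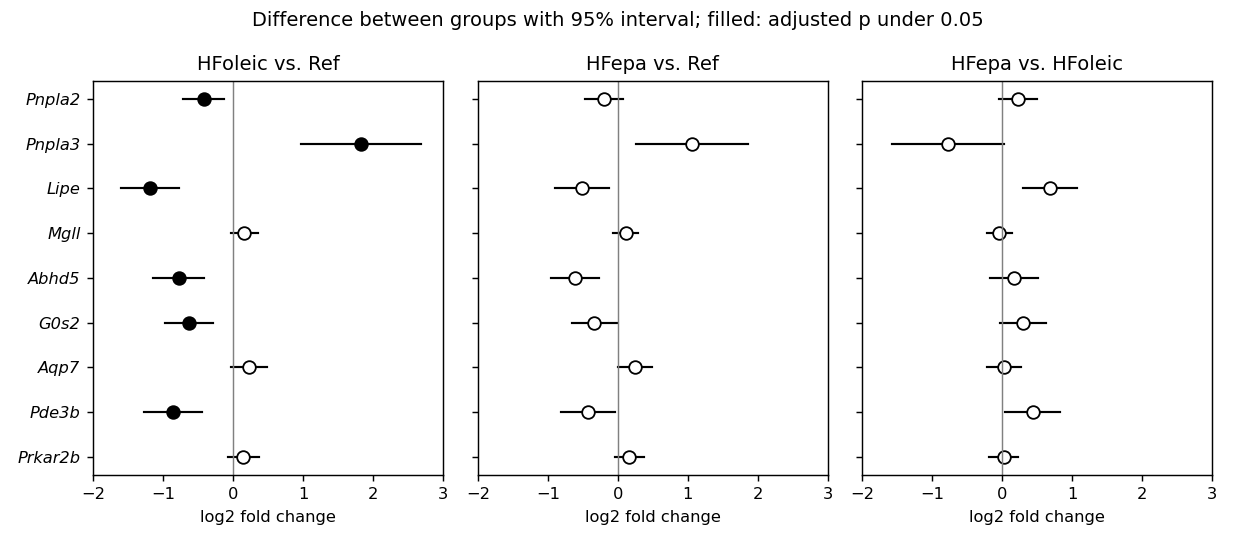
Difference between groups for the 9 genes (horizontal axis: log2 fold change of the brightest probe; 1 panel per comparison); points are estimates, lines 95% intervals, and filled points passed at an adjusted p of 0.05. Filled points appear only in HFoleic vs. Ref, for 6 genes, and the HFepa vs. Ref panel shares its Ref arrays with that one.

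The partners of the first lipase both fell in HFoleic. Abhd5, the coactivator, ran from 12.03 to 12.95 in Ref (median 12.37), from 11.35 to 11.92 in HFoleic (median 11.66), and from 11.12 to 12.40 in HFepa (median 11.89). The HFoleic mice were all below the Ref mice, and of the HFepa mice only mouse 3, at 12.40, lay within the Ref range. Abhd5 was 1.71-fold lower in HFoleic than in Ref (log2 -0.78, SE 0.17, adjusted p = 0.00271). The log2 difference of HFepa vs. Ref was -0.61 (SE 0.16) and just missed the threshold with an adjusted p of 0.0532. It passed in 3 of 20 fits with 1 array left out: that p was 0.0154 without HFepa mouse 3, 0.0298 without Ref mouse 7 and 0.0489 without HFepa mouse 8. The highest was 0.118, without Ref mouse 6. In HFepa vs. HFoleic the difference was 0.17 (95% interval -0.17 to 0.51). It depends on single mice: it is larger without HFepa mouse 1, at 11.12, and smaller without HFepa mouse 3, at 12.40. All 3 Abhd5 probes were lower in HFoleic vs. Ref, the others by log2 -0.69 and -0.58. Against Ref, HFepa differed by -0.59 (adjusted p = 0.0677) and -0.23 (adjusted p = 0.386) on these other probes, and neither passed.

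G0s2, the inhibitor of the same lipase, ran from 13.80 to 14.59 in Ref (median 14.22), from 13.27 to 14.08 in HFoleic (median 13.61), and from 13.41 to 14.34 in HFepa (median 13.95). The Ref and HFoleic groups overlapped through HFoleic mouse 1 at 14.08. G0s2 was 1.55-fold lower in HFoleic than in Ref (log2 -0.63, SE 0.17, adjusted p = 0.00733). The log2 difference was -0.33 (adjusted p = 0.225) in HFepa vs. Ref and 0.29 (adjusted p = 0.287) in HFepa vs. HFoleic. The coactivator and the inhibitor thus both had lower levels in HFoleic, by differences of -0.78 and -0.63; whether these differ from each other was not tested.

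In the cAMP arm, Pde3b, the phosphodiesterase through which insulin restrains lipolysis, was lower in HFoleic. Its log2 intensity ran from 14.31 to 15.16 in Ref (median 14.61), from 13.40 to 14.35 in HFoleic (median 13.70), and from 13.47 to 14.76 in HFepa (median 14.30). HFoleic mouse 1, at 14.35, was the only HFoleic mouse within the Ref range. Pde3b was 1.81-fold lower in HFoleic than in Ref (log2 -0.86, SE 0.20, adjusted p = 0.00339), and all 3 of its probes passed as lower. The log2 difference was -0.42 (adjusted p = 0.203) in HFepa vs. Ref and 0.43 (adjusted p = 0.197) in HFepa vs. HFoleic.

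Prkar2b, the regulatory subunit of protein kinase A that is abundant in fat, did not pass in any comparison. Its level was 16.73 ± 0.25 in Ref, 16.87 ± 0.15 in HFoleic and 16.89 ± 0.16 in HFepa. The 95% interval of the difference was -0.08 to 0.37 in HFoleic vs. Ref, and the difference of 0.14 was 0.06 without Ref mouse 3. Aqp7, which lets glycerol out of the fat cell, had a level of 11.73 ± 0.24 in Ref, 11.96 ± 0.10 in HFoleic and 11.98 ± 0.27 in HFepa. Its interval was -0.03 to 0.49 in HFoleic vs. Ref and 0.004 to 0.49 in HFepa vs. Ref, with adjusted p-values of 0.180 and 0.234. The remaining Aqp7 probe had a difference of 0.10 in HFoleic vs. Ref. In HFepa vs. Ref it differed by 0.28 (95% interval 0.07 to 0.50, adjusted p = 0.123).

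**Figure D3:**
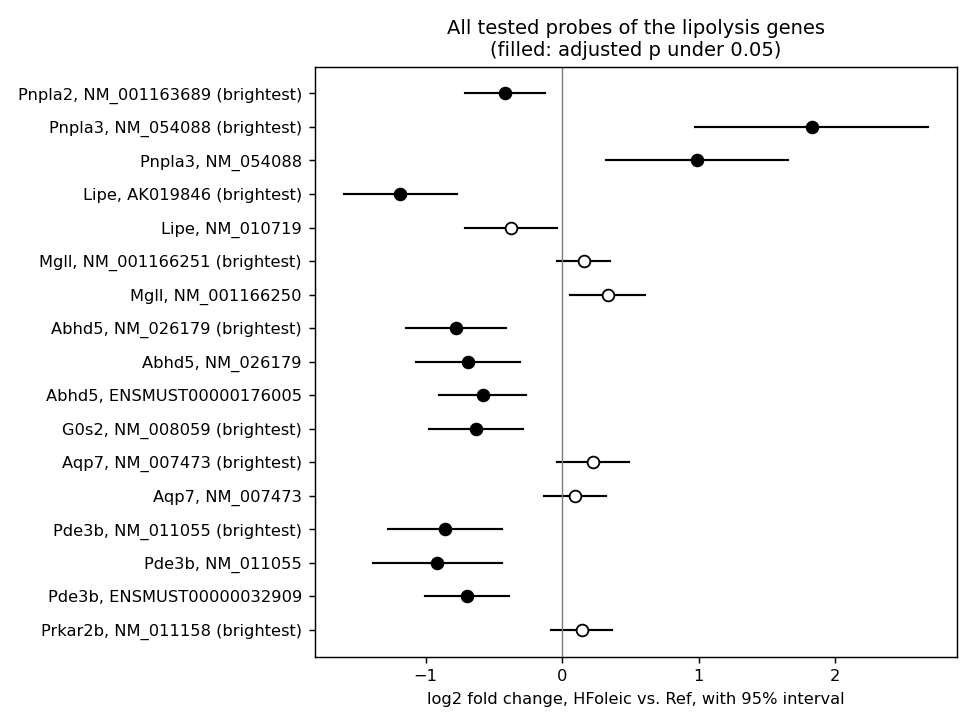
Difference between HFoleic and Ref for each of the 17 tested probes (horizontal axis: log2 fold change; vertical axis: gene and transcript); points are estimates, lines 95% intervals, and filled points passed at an adjusted p of 0.05. The 3 probes of Abhd5 and the 3 of Pde3b all passed as lower, while of the 2 Lipe probes only the brightest passed, with -1.18 against -0.38.

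The lineages were compared under the same diet in HFepa vs. HFoleic, and 0 of the 9 genes passed in limma. At an unadjusted p of 0.05, Lipe and Pde3b passed, beside 20.8% of all genes. Over all genes 0.00% passed with adjustment, by their brightest probe, and 1 of 39,390 probes did (0.00254%). The median log2 difference of the 9 genes was 0.17, beside 0.01 over all genes. The groups overlapped for all 9 genes, while 0.355% of all genes had groups that do not.

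Against Ref, 0 of 9 genes passed in HFepa (limma), beside 2.45% of all genes, 1.04% as higher and 1.41% as lower. Without adjustment 6 passed, beside 21.5%. Of the 17 probes 0 passed, beside 2.26%. The groups overlapped for all 9 genes, and did not for 1.04% of all genes. The median log2 difference was -0.20 there, beside -0.02. HFepa vs. HFoleic is also the test of whether the changes from Ref differ between the lineages, so a gene called in HFoleic vs. Ref and not in HFepa vs. Ref was not shown to differ between them.

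The mean of HFepa lay between the means of Ref and HFoleic for 7 of the 9 genes, while Aqp7 and Prkar2b had their highest mean in HFepa. The share of all genes with such a mean was not computed, so this count is not particular to these genes. HFepa mouse 1 had the lowest HFepa value in Pnpla2, Lipe, Abhd5, G0s2, Pde3b and Prkar2b and the highest in Pnpla3. Without it, the log2 difference of Lipe in HFepa vs. HFoleic was 0.75 with an adjusted p of 0.0277, and 2849 probes passed in that comparison in place of 1.

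The 20 arrays lay on 3 slides, each of which held all 3 groups. Lipe differed in HFoleic vs. Ref by -1.04, -1.59 and -1.23 within slides 1, 2 and 3. Pnpla3 differed by 2.40 and 2.14 within slides 1 and 3 and by 1.1 within slide 2, and Abhd5 by -0.65, -0.85 and -0.82. G0s2 differed by -0.47, -1.24 and -0.34, Pde3b by -0.60, -1.44 and -0.70, and Pnpla2 by -0.25, -0.78 and -0.39. Each of these 6 genes thus had 1 direction on the 3 slides, with 1 HFoleic array on slide 2. With the slide as a block, Lipe also passed in HFepa vs. HFoleic (log2 0.72, adjusted p = 0.0463).

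The rest of the pathway was followed through a list of 82 genes, of which 80 were tested. In HFoleic vs. Ref 32 of them passed (40%), 10 as higher and 22 as lower, beside 15.2% and 16.7% of all genes. Their median log2 difference was -0.10. In HFepa vs. Ref 1 passed (1.25%, below the 2.45% of all genes), and in HFepa vs. HFoleic 0 did, beside 0.00% of all genes.

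**Figure D4:**
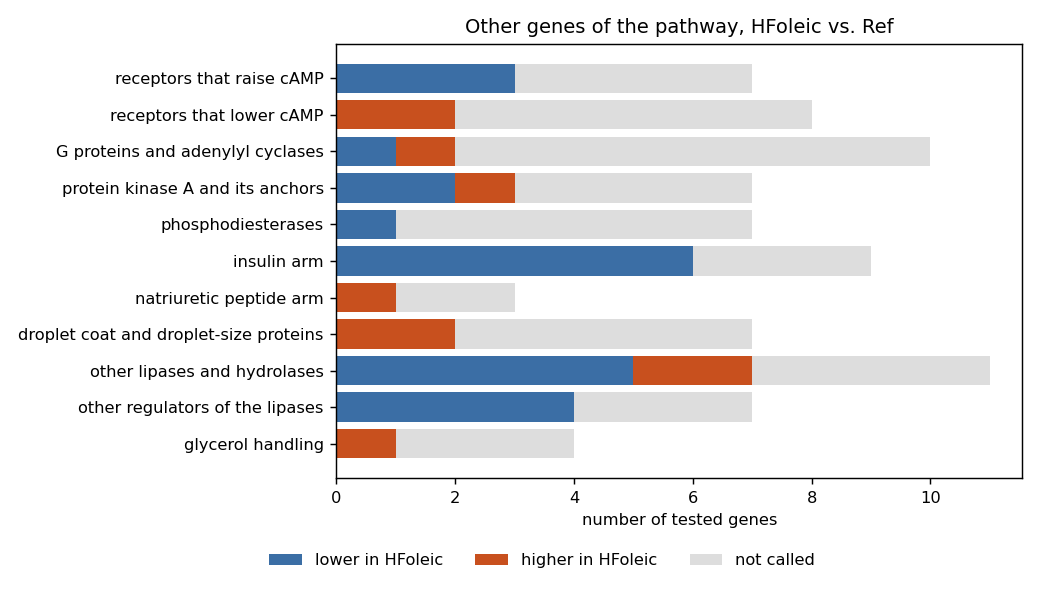
Other genes of the lipolysis pathway in HFoleic vs. Ref, by role (horizontal axis: number of tested genes; colours: lower in HFoleic, higher in HFoleic, not past the threshold). Of the 9 genes of the insulin arm 6 were lower, and of the 7 receptors that raise cAMP 3 were lower and 0 higher.

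Read against the 31.9% of all genes that passed in HFoleic vs. Ref, the share was 42.9% for the 7 receptors that raise cAMP, of which 3 fell and 0 rose, 25% for the 8 receptors that lower it and 20% for the 10 G proteins and adenylyl cyclases. Adrb3, the main beta receptor of mouse fat cells, was lower by log2 -0.89 (16.65 ± 0.40 in Ref, 15.76 ± 0.71 in HFoleic, adjusted p = 0.0190). Adrb1 was lower by -0.84 (adjusted p = 0.0118). Of the 8 receptors that lower cAMP, 2 rose: the adenosine receptor Adora1 by 0.91 (adjusted p = 0.00209) and the prostaglandin receptor Ptger3 by 0.80 (adjusted p = 0.0455). Among 10 G proteins and adenylyl cyclases, which make cAMP, Adcy7 rose by 1.83 (adjusted p = 0.00259) and Adcy4 fell by 0.84 (adjusted p = 0.00326).

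Of 7 genes of protein kinase A and its anchors 3 passed in HFoleic vs. Ref (42.9%, beside 31.9% of all genes): the regulatory subunit Prkar2a rose by 0.24, the subunit Prkar1b fell by 0.36 and the anchor Akap12 fell by 0.38. Among 7 other phosphodiesterases 1 passed (14.3%, below the share of all genes): Pde4d fell by 0.86 (adjusted p = 0.00568). In the natriuretic peptide arm, 1 of 3 genes passed (33.3%, near the share of all genes): Npr3, the clearance receptor, rose by 0.66 (adjusted p = 0.00840).

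The insulin arm had 6 of 9 genes lower in HFoleic vs. Ref (66.7%, beside 16.7% of all genes as lower and 31.9% in either direction) and 0 higher. They were the receptor Insr (-0.51), its adaptors Irs1 (-0.67) and Irs2 (-0.99), the lipid kinase subunit Pik3cb (-0.84), and the kinases Pdpk1 (-0.22) and Akt2 (-0.36), all as log2 differences. Pik3cb had the smallest adjusted p of the arm (0.000703), with 11.54 ± 0.13 in Ref, 10.70 ± 0.16 in HFoleic and 10.91 ± 0.38 in HFepa. It was also the gene that passed in HFepa vs. Ref, by -0.63 (adjusted p = 0.0281), 1 of 80 tested.

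On the lipid droplet, 2 of 7 coat and size proteins passed (28.6%, near the 31.9% of all genes). Both were higher, as were 15.2% of all genes: Plin2, the coat protein found on droplets of most cells, by 0.92 (adjusted p = 0.0105), and Plin3 by 0.57 (adjusted p = 0.00600). Plin1, the coat protein that holds ABHD5 in fat cells, had a difference of -0.33 (adjusted p = 0.105). Of 11 other lipases and hydrolases, 5 fell and 2 rose (63.6% passed). Those of the smallest p were Ddhd2 (-0.75), Pnpla1 (-0.59), Abhd12 (1.01), Ces1f (-1.68), Lipa (1.51) and Ces1d (-1.21). Ces1d and Ces1f are carboxylesterases, and Lipa is the acid lipase of the lysosome. Pnpla7, the remaining gene of the 7, fell by 0.53.

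Of 7 other regulators of the lipases, 4 fell (57.1%, beside 16.7% of all genes as lower and 31.9% in either direction). Irf4, a transcription factor that rises with fasting in fat, fell by 2.04 (10.49 ± 1.07 in Ref, 8.45 ± 0.24 in HFoleic, adjusted p = 0.00153). Hilpda, an inhibitor of ATGL, fell by 0.92 (adjusted p = 0.00217), Sirt1 by 0.40 (adjusted p = 0.00163) and Foxo1 by 0.19 (adjusted p = 0.0428). In glycerol handling, 1 of 4 genes passed (25%, below the 31.9% of all genes): Gpd1, which makes glycerol 3-phosphate, rose by 1.06 (adjusted p = 0.00262).

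Markers of other cells moved in the same comparison. In bulk tissue, fewer cells of a type and less RNA per cell cannot be told apart. The mean of 8 adipocyte markers was 15.77 ± 0.17 in Ref, 15.33 ± 0.29 in HFoleic and 15.57 ± 0.24 in HFepa (log2 intensity), and 6 of 8 were lower in HFoleic vs. Ref, beside 16.7% of all genes. Lgals12 fell by 0.85 and Adig by 0.74, while Adipoq, at -0.03, and Slc2a4, at 0.14, did not pass. The brightest adipocyte marker was Cfd, which fell by 0.50.

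The mean of 8 macrophage markers was 12.02 ± 0.22 in Ref, 13.30 ± 0.43 in HFoleic and 12.50 ± 0.74 in HFepa, and 7 of 8 rose in HFoleic vs. Ref (15.2% of all genes did), among them Cd68 by 2.41 and Adgre1 by 2.27. The lowest HFoleic mouse was mouse 1, at 12.63, and the highest HFepa mouse was mouse 1, at 13.78. Their brightest probe was that of Lyz2. Of 8 markers of lipid-associated macrophages 7 rose, with means of 9.77, 13.04 and 11.44, and the brightest of them was Lpl, which fat cells also make. Of 6 fibroblast and progenitor markers 2 rose, the collagens Col1a1 (1.49) and Col3a1 (1.38), beside 15.2% of all genes as higher. Of 4 tested testis markers 1 fell, Tnp2 (-0.25), beside 16.7% of all genes as lower. In either direction 31.9% of all genes passed. In the lists of brown fat, mesothelium, endothelium, T cells, B cells, epididymis, liver and muscle 0 passed in limma, and in HFepa vs. Ref and HFepa vs. HFoleic 0 passed in any list.

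Single mice stood apart in some of these lists. The brown or beige fat markers had a mean of 11.74 in HFepa mouse 7 and 8.49 to 8.92 in the other HFepa mice. The 2 tested epididymis markers had a mean of 10.27 in Ref mouse 3 and at most 9.07 in the other Ref mice. The testis markers were highest in HFoleic mouse 5 (9.06), Ref mouse 6 (8.41), Ref mouse 3 (8.27) and HFepa mouse 4 (8.10), and the liver markers in HFoleic mouse 6 (12.73). With each array left out in turn, Lipe, Pnpla3, Abhd5, G0s2 and Pde3b passed in HFoleic vs. Ref in 20 of 20 fits.

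**Figure D5:**
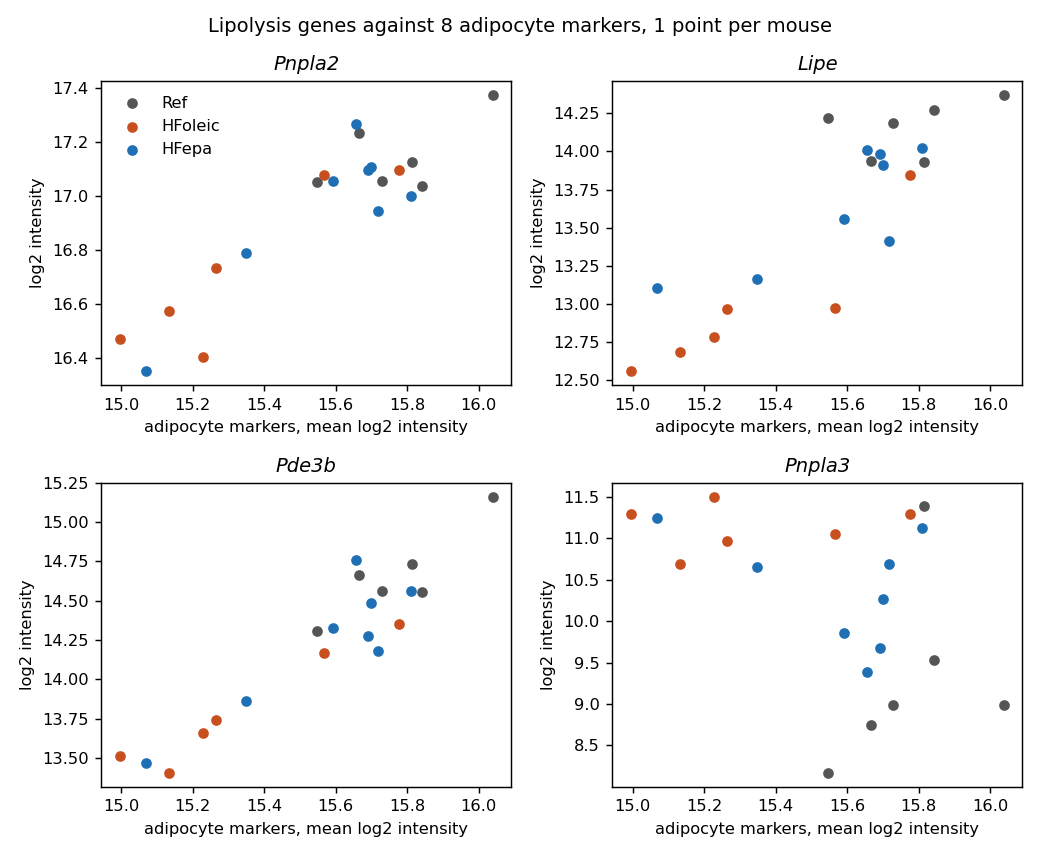
Level of Pnpla2, Lipe, Pde3b and Pnpla3 in each of 20 mice (vertical axes: log2 intensity) against the mean log2 intensity of 8 adipocyte markers (horizontal axes); colours give the group. Pnpla2, Lipe and Pde3b are low in the HFoleic and HFepa mice with the lowest adipocyte markers, and Pnpla3 has no such order.

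Within the groups the same markers moved with several lipolysis genes, also with some that did not pass in any comparison. Over the 20 arrays, centred on their group means, the Pearson r with the adipocyte markers was 0.91 for Pde3b, 0.85 for Pnpla2, 0.81 for Lipe, 0.72 for G0s2, 0.70 for Abhd5, 0.68 for Prkar2b, 0.50 for Mgll, 0.33 for Aqp7 and -0.02 for Pnpla3. With the macrophage markers it was -0.81 for Lipe, -0.79 for Pde3b, -0.71 for Pnpla2, -0.70 for Abhd5, -0.54 for G0s2, -0.48 for Prkar2b, -0.32 for Aqp7, -0.23 for Mgll and 0.09 for Pnpla3. With the markers of lipid-associated macrophages it was -0.86 for Pde3b, -0.85 for Pnpla2, -0.80 for Abhd5, -0.79 for Lipe, -0.63 for G0s2, -0.58 for Aqp7, -0.37 for Prkar2b, -0.17 for Mgll and 0.33 for Pnpla3. These are descriptions over 20 arrays that share their normalization.

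With the adipocyte markers as a covariate in the fit, 1 of 9 genes, Lipe, passed in HFoleic vs. Ref (log2 -0.64, SE 0.15, adjusted p = 0.0376). Pnpla2 then differed by -0.02 (SE 0.10, adjusted p = 0.932), Pde3b by -0.24 (SE 0.12, adjusted p = 0.232), Abhd5 by -0.36 (SE 0.16, adjusted p = 0.201) and G0s2 by -0.22 (SE 0.15, adjusted p = 0.416). The differences of 3 genes that had not passed became larger: Prkar2b went from 0.14 to 0.38 (adjusted p = 0.0509), Mgll from 0.16 to 0.31 (adjusted p = 0.101) and Aqp7 from 0.23 to 0.37 (adjusted p = 0.166). Pnpla3 no longer passed, with a difference of 1.80 beside 1.83 without the covariate and an SE of 0.53 beside 0.41 (adjusted p = 0.0626). With the macrophage markers as the covariate 0 of 9 passed in limma, Lipe differed by -0.48 (adjusted p = 0.259) and Pnpla3 by 1.66 (adjusted p = 0.256). In HFepa vs. HFoleic, Lipe differed by 0.37 (adjusted p = 0.392) with the adipocyte covariate and by 0.24 (adjusted p = 0.868) with the macrophage covariate. These covariates differ between the groups themselves, and over all probes the calls in HFoleic vs. Ref went from 12,148 to 1230 and to 1. A change per fat cell and a change in the share of fat cells cannot be told apart by these fits.

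Within the groups, the members that varied most alike were Pnpla2 and Pde3b (r = 0.91), Abhd5 and Pde3b (0.83) and Mgll and Prkar2b (0.81). Pnpla3 had its highest r with Mgll (0.48) and was at -0.44 with Abhd5. Among all other genes, those most like Pnpla2 were Uck2 (0.96), Bnip3 (0.95) and Prpf8 (0.95). Those most like Lipe were Polr2c (0.94), Ccnl2 (0.93) and Tmem88b (0.92). Those most like Pnpla3 were Lag3 (0.93), 2810428I15Rik (0.89) and a long noncoding RNA of chromosome 6 (0.88). Each r is Pearson's, over 20 arrays of group-centred values, and describes likeness only.

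FOXO1 is a known activator of lipase genes in fasting, so the letters GTAAACA, a FOXO site, were searched on both strands in the 250 bases before the RefSeq start sites (GRCm38.p6), together with CACGTG, an E-box. Of 32,851 promoters, 3.17% held the first and 6.02% the second, and 8 of the 9 genes had a promoter entry. These shares are per promoter, while the matches below are given by gene. Lipe, Mgll, Aqp7 and Prkar2b had 2 promoters each, and Pnpla2, Pnpla3, Abhd5 and G0s2 had 1 each. The first was found in a promoter of Lipe and of Mgll, and the second in a promoter of Lipe, Mgll and Prkar2b. The stretches with the FOXO letters in capitals, with positions counted from the start site, are shown because Lipe fell in HFoleic vs. Ref and Mgll did not pass.
Lipe, capitals from position -119, promoter chr7:25390063-25390362, minus strand: aactctgggctcTGTTTACagcatgtggtt
Mgll, capitals from position -241, promoter chr6:88724162-88724461, plus strand: tgtgcaactGTAAACAtgtgcatgcagttc

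In Lipe the letters are on the opposite strand. Pnpla2, Pnpla3, Abhd5, G0s2 and Aqp7 held neither motif in this window, which says only that these letters are not in it. A match describes the letters and is not a binding site.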

How the data were processed

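Spot files of 20 Agilent 1-colour arrays were used. Per the file headers, spot intensities were extracted by the authors with Agilent Feature Extraction 10.10.1.1 (mm9 probe positions), and the deposited median intensity was neither background-corrected nor normalized. The authors also deposited log2 values, derived from that same signal after filtering and quantile normalization, and used here only as an alternative; all 17 tested probes are in that table. Control spots were dropped, marked spots set to missing, and probes kept if well above background on at least 6 of 20 arrays (39,390 of 56,605 probes). The log2 values were quantile normalized; 1 mean per group was fitted to all arrays with limma 3.58.1 (R 4.3.3), eBayes and Benjamini-Hochberg adjustment. The tests were tried on simulated data. Precision is limited by the number of mice, and p-values measure the spread between them.

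The 9 genes, the pathway and marker lists and the rule for naming genes were chosen with earlier results of these data known. Named were all 9 genes and, per role, the called pathway genes, at most 6 by smallest p, with the remaining gene where a count left 1 over; 1 called gene is not reported here. Promoters came from RefSeq (GRCm38.p6). Alternatives were other signals, scalings and filters, slide and replicate number as blocks, array weights, a trend, fits of the compared groups only, marker covariates, the mean of all probes, and each array left out. Plots were drawn with matplotlib 3.10.9.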

Additional observations from a re-analysis of the deposited data

Results flagged for a closer look

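In 8 of 51 groups of probe values 1 mouse stood apart from its group, with a gap to the nearest mouse that was large against the whole range (Dixon's criterion); chance gives about 1 in 20. The values are log2 intensities. Both Lipe probes had HFoleic mouse 1 above the rest, at 13.85 (nearest 12.97) on AK019846 and at 12.50 (nearest 11.79) on NM_010719. On the latter, HFepa mouse 1 was low at 11.30 (nearest 11.95). Mgll (NM_001166251) was low in Ref mouse 3 at 15.91 (nearest 16.34). Ref mouse 5 was high on a second NM_026179 probe of Abhd5 at 11.27 (nearest 10.70) and on a second NM_011055 probe of Pde3b at 10.18 (nearest 9.70). Aqp7 was low in HFepa mouse 1 on its second NM_007473 probe at 10.91 (nearest 11.23). Pde3b (ENSMUST00000032909) was high in HFoleic mouse 1 at 7.01 (nearest 6.53).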

How the results depend on the processing

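In HFoleic vs. Ref, 6 genes were called, 5 to 6 with 1 array left out; 1 remained with the adipocyte covariate and 0 with the macrophage covariate. In HFepa vs. Ref, 0 became 1 (Abhd5) with a filter on a whole group or with array weights, 3 without HFoleic mouse 1 and Ref mouse 7 together (chosen after seeing the data), and 0 to 2 with 1 array left out. In HFepa vs. HFoleic, 0 became 1 (Lipe) with the slide as a block, 2 (Lipe and Pde3b) with array weights, 1 without those 2 mice, and 0 to 1 with 1 array left out.

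Probes called in HFoleic vs. Ref went from 12,148 to 7871 with a replicate block, 1230 and 1 with the covariates, and 9818 to 13181 with 1 array left out. In HFepa vs. Ref 889 became 578 (median centring), 583 (no filter), 25 (replicate block), 1455 (array weights), 140 (compared groups only), 196 and 128 (covariates) and 2184 (without the 2 mice), and with 1 array left out between 130 (Ref mouse 6 left out) and 2510 (HFepa mouse 3 left out). In HFepa vs. HFoleic 1 became 0 with the processed signal, normexp, median centring, the replicate block, the compared groups only and both covariates, 1295 with the slide block, 4577 with array weights, 1952 without the 2 mice, and 0 to 2849 with 1 array left out.

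The labels gave no pairs, so mice with the same number were not treated as pairs in the main fit. The correlations of their deviations ran from -0.59 to 0.56, which cannot show how mice were matched. The authors state that the HFoleic and HFepa mice were matched for body weight. With the replicate block Pnpla2 in HFoleic vs. Ref was -0.37 (adjusted p = 0.148), and no other gene changed its call. Signs turned for Pnpla2 with the macrophage covariate, to 0.00499 in HFoleic vs. Ref and -0.0394 in HFepa vs. HFoleic. In HFepa vs. HFoleic they also turned for Mgll (0.000494, replicate block), Abhd5 (-0.0599 adipocyte, -0.157 macrophage covariate), Aqp7 (-0.0141 median centring, -0.0163 replicate block, -0.0114 array weights, -0.0557 and -0.0827 covariates) and Prkar2b (-0.0113 slide, -0.114 with either covariate). With 1 array left out they turned for Aqp7 (-0.0465 to 0.0725) and Prkar2b (-0.0195 to 0.0543). The causes were not tested. Other scalings moved the median of all probes by less than 0.1.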
